A study of Mus musculus with 12 samples.

Results

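Germline stem cells (GSCs), spermatogonial stem cells kept in culture, were compared between wild type (WT) and a pair of Stag3 knockout lines, called KO1 and KO2. The comparison takes every library whose labels give the cell type GSC, which is 6 of the 12 samples of the series: 2 WT, 2 KO1 and 2 KO2. All 3 groups carry the label Acrosin-EGFP; beta-Actin-EGFP (AAG), so the knockouts and their controls share both EGFP transgenes, and the labels give the genotypes as WT and Stag3 KO. The labels leave out how Stag3 was altered, whether a line is 1 clone, the passage and the culture medium. No age or other treatment is named. RNA was measured by SC3-seq, which reads the 3' ends of amplified cDNA made from 1 ng of RNA, and the other 6 samples are testis germ cells of embryonic days 16 and 17 and postnatal day 7. The design text names the characterisation of STAG3-cohesin in these cells as the purpose.

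Cohesin is a ring of SMC and kleisin subunits with a STAG subunit, and it holds sister chromatids together and forms chromatin loops. STAG3 is the STAG subunit known mainly from meiosis, beside the STAG1 and STAG2 of other cells. Spermatogonial stem cells renew under GDNF, which binds GFRA1 and signals through the receptor kinase RET to ERK and AKT, and under FGF. ETV5, BCL6B and LHX1 are known targets of GDNF there, while KIT and SOHLH1 mark the step to differentiation. Levels are given in RPM, reads per 1000000 that fell on genes outside the mitochondrial genome, and changes are log2 fold changes from WT to the mean of the knockout lines with the standard error (SE) of the fit. A gene is said to have risen or fallen only where its Benjamini-Hochberg adjusted p in the quasi-likelihood test of edgeR was below 0.05.

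Libraries held 3312252 to 4596607 counts, mitochondrial genes 8.82% to 10.5% of gene counts and ERCC spike-ins 2.80% to 3.41% of all counts, and 3 counts, the limit that a count of 0 allows, came to 0.748 to 1.05 RPM, for counting error only. Of 7128 genes with at least 20 RPM on average, 233 differed over 1.5-fold between the WT libraries, 146 between those of KO1 and 87 between those of KO2. Germ cell markers were detected, with a summed level of 8 genes of 3386 to 3735 RPM in WT and 3151 to 3725 in the knockouts, where 0 of the 8 rose and 5 fell. The 15 markers of undifferentiated spermatogonia summed to 1779 to 1829 and 1439 to 1519.5 RPM, with 6 higher and 6 lower in the knockouts. Among all genes tested 8.64% rose and 10.6% fell. The spermatid genes Prm1, Prm2, Tnp2 and Acrv1, 6 of 7 Leydig cell genes, the Sertoli cell genes Amh, Cst9, Rhox8, Fshr and Defb19, and 5 of 9 macrophage genes had 0 counts in all 6 libraries.

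Stag3 itself (GRCm38.p6, chromosome 5, 138272514 to 138312397, overlapped by Gal3st4 and Gpc2) was counted in every library, at 385 and 420.4 RPM in WT, 295 and 304 in KO1, 137 and 152 in KO2. All 4 knockout libraries lay below both WT libraries, and those of KO2 below those of KO1. A tag at the 3' end does not check an alteration elsewhere in the gene, so the labels were taken as given. Among the other cohesin genes, the paralogs Stag1 (176 to 166 and 167 RPM from WT to KO1 and KO2) and Stag2 (56.7 to 60.5 and 64.1), the kleisins Rad21 (559 to 556 and 532) and Rec8 (98.2 to 103 and 95.4) and Ctcf (43.5 to 54.1 and 44.9), whose protein stops cohesin loops, did not pass the test. Of 22 tested members 4 rose and 0 fell (18.2% and 0%, beside 8.64% and 10.6% of all genes), with a median log2 fold change of 0.03. The largest level among the risers was that of Smc1b, the meiotic SMC1 subunit, at 295 and 294 RPM in WT, 405 and 395 in KO1, 358 and 358 in KO2, above both WT libraries in each knockout library (fitted change 0.31 ± 0.07, adjusted p = 0.000601). The number that rose was 2 without KO1 replicate 1, 2 without KO2 replicate 1, 1 without KO2 replicate 2 and 2 without WT replicate 1, and 0 when ERCC totals set the size factors (edgeR, 4 at an unadjusted p below 0.05). The number that fell was 1 without WT replicate 1 and 2 without WT replicate 2.

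Across the 11890 genes tested, 19.2% passed the threshold in the mean of both lines, 8.64% higher and 10.6% lower in the knockouts. The median log2 fold change of all genes was 0.0021, that of the genes called higher 0.59 and that of the genes called lower -0.60. Changes over 2-fold were seen in 245 genes that rose and 321 that fell, and changes over 4-fold in 68 and 84. In 993 of the 1027 risers and 1102 of the 1259 fallers all 4 knockout libraries lay above both WT libraries or below both, an order found in 21.8% (knockouts higher) and 14.9% (knockouts lower) of all tested genes whether called or not. Set against WT on their own, 13.6% of genes passed in KO1 (6.24% higher, 7.4% lower) and 15.6% in KO2 (7.19% higher, 8.45% lower), and these comparisons share the WT libraries. Left with 1 of its own libraries, KO1 gave 875 calls (without KO1 replicate 1) or 859 (without KO1 replicate 2) in place of 1622, and KO2 gave 977 (without KO2 replicate 1) or 905 (without KO2 replicate 2) in place of 1860, the lone library being assumed to vary like the other groups. The plot of gene lists shows how 32 groups of genes, described next by their roles, stood against these shares. The members were chosen with earlier results of these data known. Some, such as Rap1gap2 and Atoh8, are among the genes named for the size of their change, and a gene can stand in more than 1 list. The shares thus describe the lists and are not tests of them.

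**Figure D1:**
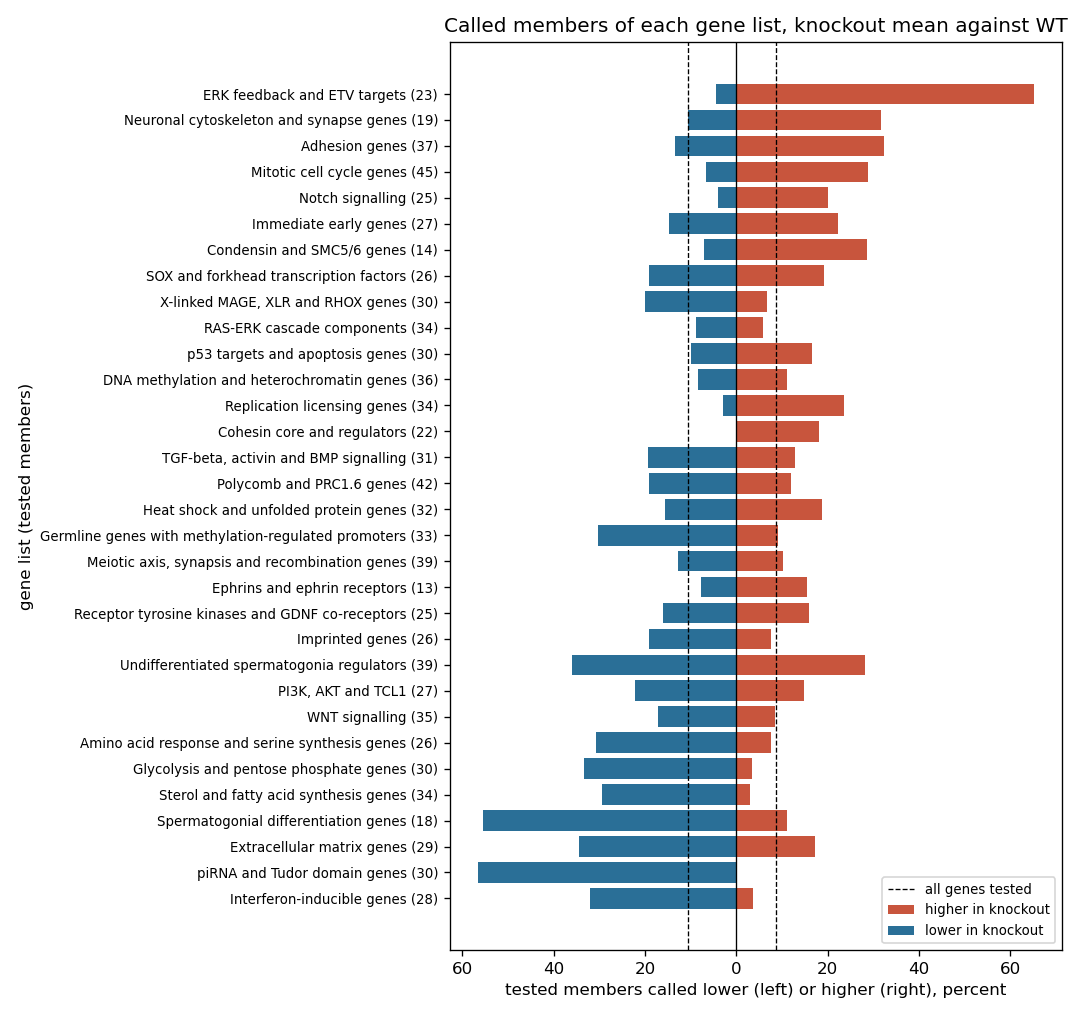
Share of tested members of each gene list (percent, x axis) that passed the test of the knockout mean against WT, higher to the right and lower to the left, with the lists ordered by their median log2 fold change and the number of tested members in brackets. Dashed lines mark the shares among all 11890 genes tested, 8.64% higher and 10.6% lower. The list of ERK feedback genes and ETV targets reaches 65.2% to the right and the piRNA list 56.7% to the left.

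A list of ERK feedback genes, the ETV factors and genes listed with them as ETV targets had risers in the larger part of those tested. It includes Bcl6b, Lhx1, Pou3f1 and T, which rose. Like Etv5, they also count among the regulators of undifferentiated spermatogonia. Of 23 tested members 15 rose and 1 fell (65.2% and 4.35%, beside 8.64% and 10.6% of all genes), with a median log2 fold change of 0.89. In KO1 alone 13 rose and 1 fell, and in KO2 alone 12 and 1. Etv5 (chromosome 16, 22381313 to 22439570), an ETS factor needed for stem cell renewal, was read at 61.5 and 52.8 RPM in WT, 182 and 158 in KO1, 195 and 191 in KO2. The WT libraries were lowest and those of KO2 highest, and the lines did not differ by the test (adjusted p = 0.606). Dusp6 (chromosome 10, 99263231 to 99267489, overlapped by Gm34921), the phosphatase that inactivates ERK in the cytoplasm, stood at 24.2 and 31.6 RPM in WT, 90.6 and 105 in KO1, 122 and 123 in KO2 (a change of 1.91 ± 0.13, adjusted p = 5.31e-23). Both KO2 libraries lay above both KO1 libraries, though the lines did not differ by the test (adjusted p = 0.33). Its relative Dusp9 was at 40.3 and 42.9 RPM in WT, 103 and 94.3 in KO1, 104 and 119 in KO2, again with no overlap between WT and knockout (1.28 ± 0.12). Spred1, an inhibitor of RAS activation and the most abundant member of the list by 3'-end counts, went from 102 and 116 RPM in WT to between 182 and 229 in the knockout libraries (log2 fold change 0.82 ± 0.09). The ETS factor gene Etv4 was at 16.3 and 11.2 RPM in WT, 52.1 and 42.6 in KO1, 47.5 and 42.2 in KO2. Bcl6b, a transcriptional repressor downstream of GDNF, was at 25.05 and 27.2 RPM in WT, 51.5 and 60.4 in KO1, 56.2 and 69.9 in KO2. For both genes WT and knockout libraries were fully separated, and the log2 fold changes were 1.70 ± 0.18 and 1.13 ± 0.15.

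Other members were lower in WT, some of them nearly silent. The Sprouty gene Spry4, a feedback inhibitor of receptor kinase signalling, was at 0.817 and 0.748 RPM in WT, 11.8 and 12.9 in KO1, 9.99 and 11.7 in KO2 (3.78 ± 0.49). Lhx1, a LIM homeobox factor of stem spermatogonia, went from 3.41 to 14.1 and 15.6 RPM (2.07 ± 0.33), and the POU factor gene Pou3f1 from 22.1 to 44.7 and 47.5 (1.01 ± 0.16), given as group means from WT to KO1 and KO2. T, which encodes Brachyury, had 3 counts in the WT libraries together and 80 in the 4 knockout libraries, the knockout level being 15.1 times that in WT (with a 95% counting interval of 4.99 to 74.8). All 3 WT counts lay in WT replicate 2, and the fitted log2 fold change was 3.71, 2.84 without WT replicate 1 and 7.29 without WT replicate 2. Spry1 (0.76), Spry2 (0.89), Spred2 (1.06), Il17rd (0.66) and Phlda1 (0.97) also rose, but each lost its call without at least 1 library. Spry2 had a log2 fold change of 0.22 without WT replicate 1 and 2.31 without WT replicate 2. Left out 1 at a time, the libraries changed the number of risers from 15 to between 11 and 14, and 9 passed a test against a fold of 1.5. The member that fell was Phlda2, an imprinted growth regulator, from 11.2 and 11.2 RPM in WT to between 1.05 and 3.61 in the knockouts (-2.56 ± 0.41). The phosphatase genes Dusp1 (-0.23), Dusp2 (-0.94) and Dusp10 (-1.16) did not pass the test.

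**Figure D2:**
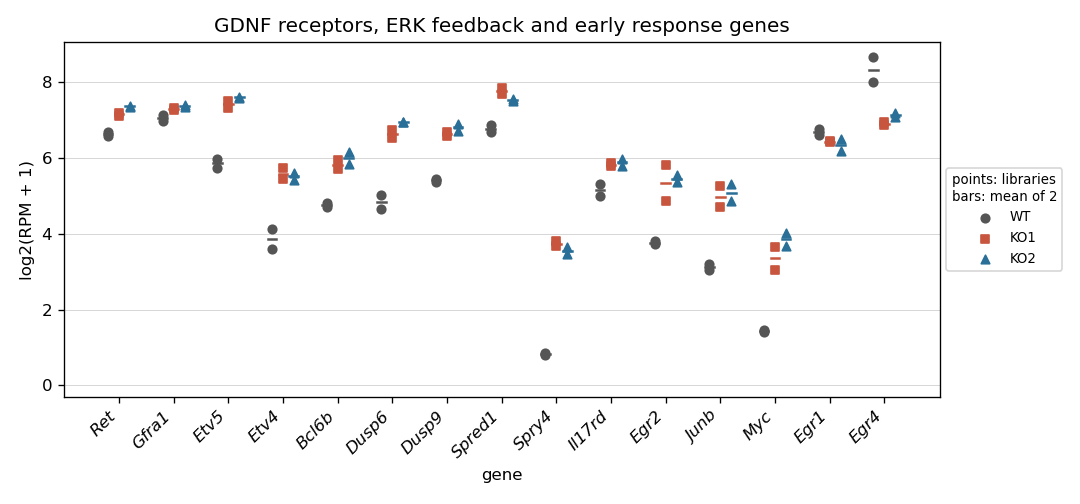
Level of 15 genes (x axis) as log2(RPM + 1) (y axis) in each GSC library, with circles for WT, squares for KO1, triangles for KO2 and bars for the mean of the 2 libraries of a group. Etv5, Dusp6, Dusp9, Spred1, Spry4, Egr2, Junb and Myc are higher in all 4 knockout libraries than in both WT libraries, Egr4 is lower, and Gfra1 did not pass the test.

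Upstream of these genes the changes were fewer than in the ERK feedback list. Of 25 tested receptor genes 4 rose and 4 fell (16% and 16%), both above the 8.64% and 10.6% of all genes. Of 34 genes of the RAS to ERK cascade 2 rose and 3 fell (5.88% and 8.82%). The medians were -0.08 for the receptors and 0.13 for the cascade. In the cascade 1 rose without KO1 replicate 1 or without WT replicate 1, and 3 without KO1 replicate 2. Ret was at 103 and 94.4 RPM in WT, 138 and 145 in KO1, 162 and 166 in KO2, so each knockout library exceeded both WT libraries (a change of 0.57 ± 0.10, adjusted p = 1.91e-06). Gfra1, the GDNF co-receptor, was at 139 and 124 RPM in WT, 154 and 159 in KO1, 161 and 167 in KO2 and did not pass the test (a change of 0.23 ± 0.09, adjusted p = 0.0584). Gfra2, the co-receptor for neurturin, was low, with 0.545 and 1.495 RPM in WT, 2.65 and 7.68 in KO1, 8.64 and 9.15 in KO2, and rose. Its log2 fold change was 2.60, and 3.45 without WT replicate 2. Axl, a receptor of the TAM family, rose from 17.4 and 16.9 RPM to 37.5 to 48.5 (1.27 ± 0.17), and Ror2, a receptor for WNT5A, from 12.5 and 10.96 to 21.2 to 32.1 (1.15 ± 0.22). The ephrin receptor gene Epha2 (chromosome 4, 141301221 to 141329384) had the largest rise among the genes named by size, at 4.90 and 8.72 RPM in WT, 44.7 and 40.5 in KO1, 32.7 and 37.7 in KO2. The WT and knockout libraries stood far apart, and the lines did not differ by the test (adjusted p = 0.711). Kit, the receptor for stem cell factor, was at 42.2 and 82.0 RPM in WT, 30.01 and 31.4 in KO1, 14.6 and 11.1 in KO2, and fell in both lines, although the WT libraries differed from each other more than WT replicate 1 did from KO1. In the cascade, Mapk3, which encodes ERK1, fell from 74.3 to 51.5 and 57.5 RPM (-0.50 ± 0.13), while Map2k1 (-0.18) and Braf (0.34) did not pass the test. Rap1gap2, a GTPase activator that turns RAP1 off, rose from 11.7 and 8.97 RPM to 38.1 to 42.7 (1.92 ± 0.20).

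Immediate early genes, which respond to growth factors within minutes, split. Of 27 tested members 6 rose and 4 fell (22.2% and 14.8%). Egr2, a zinc finger factor gene (overlapped by Gm32255), was at 13.1 and 12.2 RPM in WT, 28.0 and 55.9 in KO1, 40.2 and 45.8 in KO2. Junb, which encodes an AP-1 subunit, was at 8.17 and 7.23 RPM in WT, 37.1 and 25.1 in KO1, 28.4 and 38.6 in KO2. Myc was at 1.63 and 1.74 RPM in WT, 11.5 and 7.33 in KO1, 11.9 and 15.3 in KO2. In each of these 3 genes every knockout library lay above both WT libraries. The lines overlapped for Egr2 and Junb. Ier2 (0.96 ± 0.20) and Ier5 (1.004 ± 0.16) rose as well, while Fos (0.59 ± 0.27) and Jun (0.70 ± 0.54) did not pass the test. Egr4, a zinc finger gene of spermatogonia, went the other way at 404 and 257 RPM in WT, 124 and 115 in KO1, 146 and 136 in KO2, with no overlap (-1.40 ± 0.09). Klf4 fell (-0.65 ± 0.15), and Egr1, with group means of 103 to 85.4 and 80.8 RPM, fell by 0.36 on the log2 scale but lost its call without KO2 replicate 1 or without WT replicate 2, with DESeq2 and with ERCC totals.

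In the TGF-beta and BMP pathways, whose SMAD proteins carry signals from receptors to the nucleus, 4 rose and 6 fell of 31 tested genes (12.9% and 19.4%, beside 8.64% and 10.6% of all genes). Id3, a target of BMP, was at 11.7 and 14.5 RPM in WT, 46.5 and 42.6 in KO1, 61.3 and 48.0 in KO2 (1.86 ± 0.18), with no overlap between WT and knockout, while its relative Id1 (0.00) did not pass the test and Id4 fell (-0.58), a call lost without WT replicate 2. Atoh8 (overlapped by Gm52906), a bHLH factor, fell from 25.05 and 20.7 RPM to 3.24 to 5.59 (-2.37 ± 0.27), and Smad3 from 26.4 and 22.9 to 5.94 to 11.9 (-1.56 ± 0.24). The BMP receptor gene Bmpr1b had 30 counts in WT and 3 in KO1, the level in WT being 8.15 times that in KO1 (counting interval at 95% 2.53 to 41.7), and 1 in KO2. The number of genes of these pathways that rose was 2 without KO1 replicate 2 and 1 without WT replicate 1. Of 35 WNT genes 3 rose and 6 fell (8.57% and 17.1%). The secreted WNT inhibitor genes Sfrp1 (81.4 and 79.99 RPM in WT, 30.3 and 21.6 in KO1, 29.4 and 21.6 in KO2), Sfrp2 (-1.30) and Dkk3 (-1.57) fell, and the receptors Fzd7 (1.10 ± 0.21) and Fzd10 (1.505 ± 0.27) rose. For Sfrp1 the highest knockout library lay far under the lower WT library, and Axin2 (-0.81), a common target of WNT, did not pass the test. Of 25 Notch genes 5 rose and 1 fell (20% and 4%), with the ligand gene Jag1 (0.76 ± 0.19) and the ubiquitin ligase gene Dtx1 (1.90 ± 0.44) higher and the target gene Hey1 (-0.64 ± 0.16) lower, and 3 rose without WT replicate 1.

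Of 27 genes of PI3K and AKT signalling 4 rose and 6 fell (14.8% and 22.2%, beside 8.64% and 10.6% of all genes). Tcl1, whose protein binds and activates AKT, was at 21.5 and 20.9 RPM in WT, 89.7 and 90.4 in KO1, 89.1 and 96.3 in KO2, with the knockout libraries close to each other and far above WT. Itpkb, an inositol trisphosphate kinase gene, rose from 4.37 to 9.37 and 20.2 RPM (1.59 ± 0.32). Sgk1, a kinase activated by PI3K, fell from 47.9 and 60.1 RPM to 15.7 to 26.5 (-1.58 ± 0.16). The forkhead factors that AKT keeps out of the nucleus fell too, Foxo1 from 214 to 170.1 and 165 RPM (-0.41 ± 0.08) and Foxo3 from 65.3 to 38.1 and 39.96 (-0.80 ± 0.14). Mtor (-0.57 ± 0.09) and the catalytic subunit gene Pik3cd (-0.78 ± 0.16) were lower, while Pik3ca (0.22) and Akt2 (0.10) did not pass the test. The number that rose was 2 without WT replicate 1.

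Regulators of undifferentiated spermatogonia changed often and in both directions. Of 39 tested members 11 rose and 14 fell (28.2% and 35.9%), with a median of -0.11, and 14 did not pass. Beside Etv5, Bcl6b, Lhx1, Pou3f1 and T, the LIM factor gene Lhx2 rose (0.77 ± 0.13, from 40.3 to 64.9 and 77.7 RPM). Sox3 (chromosome X, 60891366 to 60893430) fell furthest among the abundant members, at 90.7 and 72.5 RPM in WT, 13.2 and 10.1 in KO1, 13.2 and 8.60 in KO2, with a gap between WT and knockout and overlapping lines. Zbtb16, which encodes the renewal factor PLZF, was at 100.2 and 103 RPM in WT, 58.0 and 53.4 in KO1, 65.1 and 49.9 in KO2 (-0.89 ± 0.12). Sall4, which binds PLZF, fell from 131 to 80.1 and 72.8 RPM (-0.83 ± 0.11). Uchl1, a deubiquitinase known as a spermatogonial marker, was at 805 and 778 RPM in WT, 397 and 345 in KO1, 321 and 325 in KO2 (-1.24 ± 0.07, adjusted p = 2.9e-31). For Zbtb16 and Uchl1 no knockout library reached the lower WT library. Nanos3 (-1.27 ± 0.15), Sall1 (-1.03 ± 0.20), Utf1 (-1.70 ± 0.39) and the retinoic acid receptor gene Rarg (-2.11 ± 0.40) fell, and Upp1, a uridine phosphorylase gene, had 9.26 and 9.97 RPM in WT against 0 to 1.08 in the knockouts. Nanos2 (-0.11), Taf4b (-0.17) and Piwil4 (-0.21) did not pass the test. In bulk RNA a lower level can come from fewer cells of a type or from less RNA per cell, and these cannot be told apart.

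Genes of spermatogonial differentiation were mostly lower. Of 18 tested members 2 rose and 10 fell (11.1% and 55.6%), with a median of -0.25; the medians were -0.02 in KO1 and -0.48 in KO2. Sohlh1 (chromosome 2, 25842995 to 25847248) was at 66.4 and 51.3 RPM in WT, 5.89 and 6.98 in KO1, 2.16 and 0.277 in KO2. Its partner Sohlh2, which forms a dimer with it, was at 181 and 189.9 RPM in WT, 221 and 196 in KO1, 209 and 213 in KO2. Sohlh1 was thus near the detection limit in KO2 and far below WT in KO1, while Sohlh2 lay slightly higher in each knockout library and did not pass the test (0.13 ± 0.08). Dmrt1, which holds spermatogonia in mitosis, was at 568 and 572 RPM in WT, 391 and 383 in KO1, 338 and 362 in KO2 (-0.68 ± 0.07). Crabp1 fell from 131 to 79.5 and 62.2 RPM (-0.94 ± 0.11) and Zfp462 from 36.8 to 25.1 and 16.2 (-0.92 ± 0.17). Stra8, the retinoic acid target that starts meiosis, fell by 0.29 on the log2 scale and lost its call with ERCC totals and in a fit of 2 groups. Against WT, Stra8 passed in KO2 (-0.52) and not in KO1 (-0.05). The cyclin gene Ccnd2 rose, at 208 and 203 RPM in WT, 301 and 320.5 in KO1, 311 and 325 in KO2, with no overlap (0.56 ± 0.08), and Kdm2b was the other riser (0.30 ± 0.10). The number that rose was 1 without KO1 replicate 2, without KO2 replicate 2 or without WT replicate 2.

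**Figure D3:**
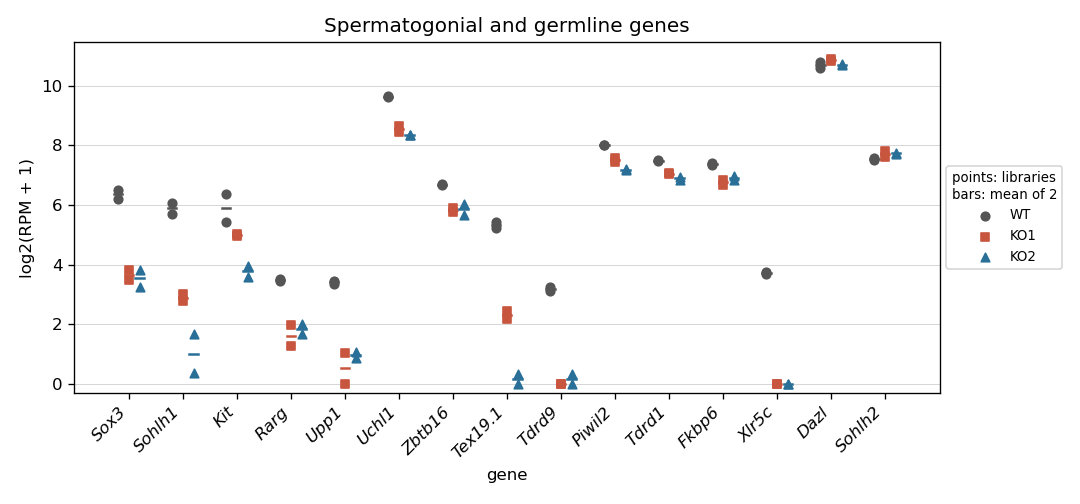
Level of 15 spermatogonial and germline genes (x axis) as log2(RPM + 1) (y axis) in each GSC library, with circles for WT, squares for KO1, triangles for KO2 and bars for the mean of the 2 libraries of a group. Sox3, Sohlh1, Tex19.1, Tdrd9 and Xlr5c lie far below WT in all 4 knockout libraries, Piwil2, Tdrd1 and Fkbp6 fall by less, and Dazl and Sohlh2 did not pass the test.

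The piRNA pathway, in which PIWI proteins and Tudor domain proteins silence transposons in germ cells, had 17 fallers and 0 risers among 30 tested members (56.7% lower, beside 10.6% of all genes), with a median of -0.34. In KO1 alone 10 fell and 2 rose, and in KO2 alone 18 fell and 0 rose (edgeR; an unadjusted p below 0.05 with a rise was found for 0 of the 30 in the mean of both lines, and DESeq2 called 0 higher). Tdrd9, an RNA helicase of the pathway, had 7.62 and 8.47 RPM in WT, 0 and 0 in KO1, 0.270 and 0 in KO2. All 4 knockout libraries were at or under the detection limit. Piwil2 was at 256 and 255 RPM in WT, 189 and 173 in KO1, 142 and 146 in KO2, a fall seen in each library and steeper in KO2, although the lines did not differ by the test (adjusted p = 0.104). Piwil1 (-1.53 ± 0.36) and Spocd1 (-1.77 ± 0.34), a link from piRNAs to DNA methylation, fell from low levels of 10.4 and 12.5 RPM in WT. The abundant members fell by less, Ddx4 (VASA) by 0.35, Mov10l1 by 0.33, Gtsf1 by 0.36, Tdrd5 by 0.45 and Tex15 by 0.58 on the log2 scale. Against WT, Ddx4 passed in KO2 (-0.54) and not in KO1 (-0.16). Tdrkh (0.04), Asz1 (-0.04), Gpat2 (-0.11) and Piwil4 did not pass the test, and 3 members passed a test against a fold of 1.5.

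A related list holds germline genes whose promoters are known to be kept silent in somatic cells by DNA methylation. Of 33 tested members 3 rose and 10 fell (9.09% and 30.3%), with a median of -0.06. Some of the fallers, such as Tdrd9 and Piwil2, are also counted in the piRNA list, so the shares of these lists are not independent. Against WT, 6 rose and 6 fell in KO1 alone (median 0.06) and 1 rose and 12 fell in KO2 alone (median -0.20). Tex19.1 (chromosome 11, 121146143 to 121148314), which restrains retrotransposons, was at 36.8 and 42.1 RPM in WT, 4.41 and 3.49 in KO1, 0.270 and 0 in KO2, so its 4 knockout libraries were all far below WT and those of KO2 near 0. Sycp3 (-0.53 ± 0.08), Fkbp6 (-0.60 ± 0.09) and Tdrd1 (-0.57 ± 0.09) fell, Usp26 rose (0.48 ± 0.10). Dazl (0.04), Taf7l (0.04), Slc25a31 (0.03), Tex101 (0.11) and Hormad1 (0.14) did not pass the test. Tuba3b and Magea8 were the other risers, and both belong to families with similar copies, which makes their counts uncertain.

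Promoter sequences are shown for the 3 genes with the largest fall and the 3 with the largest rise among the genes named by size whose promoter was in the RefSeq table (GRCm38.p6). Genes named by size were called, had at least 20 RPM in either genotype and showed no overlap between genotypes. Some genes below that level changed by more on the log2 scale, such as Xlr5c (-8.47), Tdrd9 (-6.74), Spry4 (3.78) and T (3.71). Each runs 5′ to 3′ over the 250 bases before an annotated start. By the RefSeq gene spans, this start lies inside the gene for Hsf2bp, Gpr83 and Tmem132e. The windows of Hsf2bp and Gpr83 lie within the gene span and that of Tmem132e runs into it. Capitals mark matches, on either strand, to any of 5 motifs: CACGTG (E-box), GCGGGAA (E2F), CCGGAAG (ETS), TGANTCA (AP-1) and TGACGTCA (CRE). A match is a run of letters and not a measured binding site. The genes that fell were Tex19.1 at chr11:121145893-121146142 (plus strand), Sohlh1 at chr2:25847249-25847498 (minus strand) and Hsf2bp at chr17:32034509-32034758 (minus strand).
Tex19.1: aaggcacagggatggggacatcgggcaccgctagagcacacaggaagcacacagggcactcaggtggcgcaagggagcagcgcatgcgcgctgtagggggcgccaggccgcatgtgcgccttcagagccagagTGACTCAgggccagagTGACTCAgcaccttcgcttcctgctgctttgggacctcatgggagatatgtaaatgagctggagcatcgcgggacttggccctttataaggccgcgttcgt
Sohlh1: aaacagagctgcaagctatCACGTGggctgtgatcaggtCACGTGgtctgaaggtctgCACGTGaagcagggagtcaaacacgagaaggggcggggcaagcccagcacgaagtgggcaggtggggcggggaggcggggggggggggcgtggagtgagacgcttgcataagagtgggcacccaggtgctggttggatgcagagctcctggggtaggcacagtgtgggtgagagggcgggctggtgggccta
Hsf2bp: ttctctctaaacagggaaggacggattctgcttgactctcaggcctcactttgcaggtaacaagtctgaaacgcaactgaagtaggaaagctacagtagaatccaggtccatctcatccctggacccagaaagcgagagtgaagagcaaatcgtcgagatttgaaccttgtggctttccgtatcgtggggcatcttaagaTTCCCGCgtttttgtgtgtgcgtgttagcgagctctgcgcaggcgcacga
The genes that rose were Epha2 at chr4:141300971-141301220 (plus strand), Gpr83 at chr9:14859960-14860209 (plus strand) and Tmem132e at chr11:82388650-82388899 (plus strand).
Epha2: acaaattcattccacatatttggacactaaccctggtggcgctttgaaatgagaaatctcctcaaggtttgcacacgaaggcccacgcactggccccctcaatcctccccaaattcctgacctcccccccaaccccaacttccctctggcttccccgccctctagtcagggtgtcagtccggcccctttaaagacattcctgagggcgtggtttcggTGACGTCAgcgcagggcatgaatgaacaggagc
Gpr83: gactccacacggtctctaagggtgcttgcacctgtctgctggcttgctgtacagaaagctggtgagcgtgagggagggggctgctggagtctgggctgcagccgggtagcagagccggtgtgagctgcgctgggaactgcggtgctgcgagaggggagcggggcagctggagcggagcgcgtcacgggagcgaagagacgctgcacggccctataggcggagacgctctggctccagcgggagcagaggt
Tmem132e: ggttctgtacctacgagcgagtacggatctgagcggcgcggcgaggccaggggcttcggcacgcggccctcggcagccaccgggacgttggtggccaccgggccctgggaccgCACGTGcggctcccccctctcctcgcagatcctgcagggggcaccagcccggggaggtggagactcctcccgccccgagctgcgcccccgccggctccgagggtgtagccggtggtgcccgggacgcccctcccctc

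Sohlh1 held 3 E-boxes, starting 231, 211 and 192 bases before the start, Tex19.1 2 AP-1 matches 117 and 101 bases before it, Hsf2bp an E2F match at 50 bases, Epha2 a CRE at 33 bases and Tmem132e an E-box at 137 bases, while Gpr83 held none of the 5. These windows held 15 (Tex19.1), 11 (Sohlh1), 14 (Hsf2bp), 9 (Epha2), 18 (Gpr83) and 28 (Tmem132e) CpG dinucleotides. Over the 300-base windows of the table (250 before to 50 after the start), which were found for 9637 tested genes outside chromosome 18, the median number of CpGs was 22 for all genes, 14 for the 255 with a fall over 2-fold and 20 for the 180 with a rise over 2-fold. The ETS letters were in 19.7% of all windows, 5.49% of those of the large fallers and 18 of the 180 of the large risers, and in 0 of the 17 windows of the ERK feedback list. The E-box was in 10.96% of all windows, 11.4% and 6.11% of those of large fallers and risers, 8 of 23 of the piRNA list and 15 of 31 of the germline list with methylation-regulated promoters, whether its genes fell or not. These shares are descriptions without a test, and base composition differs between the sets.

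Among chromatin regulators, 5 rose and 8 fell of 42 Polycomb genes (11.9% and 19.05%, beside 8.64% and 10.6% of all genes), whose complexes mark H3K27 or H2A to repress genes. Ezh2, the H3K27 methyltransferase, was at 72.7 and 79.99 RPM in WT, 137 and 128 in KO1, 137 and 133 in KO2, with no overlap (0.76 ± 0.10). The PRC1 subunit gene Cbx2 was at 119.8 and 143 RPM in WT, 85.0 and 84.8 in KO1, 80.5 and 87.1 in KO2, also without overlap (-0.69 ± 0.10). Leaving out a library moved these counts, to 4 that fell without KO1 replicate 1 and 3 without WT replicate 2, and to 3 that rose without KO1 replicate 2, 3 without KO2 replicate 2 and 3 without WT replicate 1. Of 36 genes of DNA methylation and heterochromatin 4 rose and 3 fell (11.1% and 8.33%), near the share of all genes. Beside Tex19.1, the H3K9 methyltransferase gene Ehmt2 fell from 206 to 151 and 135 RPM (-0.58 ± 0.09) and Dnmt3b from 57.7 to 36.2 and 41.2 (-0.63 ± 0.14), and Cbx5, which encodes HP1 alpha, rose from 109.7 to 166 and 176 (0.59 ± 0.09). In this list 5 fell without WT replicate 2, and 1 rose without KO1 replicate 1, 1 without KO2 replicate 2 and 2 without WT replicate 1. Dnmt1 (0.19), Dnmt3a (-0.02) and Setdb1 (0.03) did not pass the test.

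Genes of meiotic chromosomes, where STAG3 has its known role, changed about as often as all genes. Of 39 tested members 4 rose and 5 fell (10.3% and 12.8%, beside 8.64% and 10.6% of all genes). Hsf2bp, which brings BRCA2 to meiotic breaks, was at 27.0 and 27.7 RPM in WT, 3.24 and 3.84 in KO1, 2.16 and 2.50 in KO2, with the knockouts far below WT (-3.29 ± 0.28). The axis gene Sycp3 went from 329.8 to 250.1 and 224 RPM, Rec114, needed for meiotic breaks, from 132 to 112 and 94.5 (-0.40 ± 0.10), and Tex15 from 163 to 129.8 and 98.8 (-0.58 ± 0.09). Meioc, needed to keep the meiotic programme, rose (0.59 ± 0.13), and Sycp1 (-0.22), Syce2 (-0.08), Hormad1 and Tex14 (-0.15) did not pass the test. The number that rose was 2 without KO1 replicate 2, 1 without KO2 replicate 2 and 2 without WT replicate 1.

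Mitotic genes leaned upward. Of 45 tested members 13 rose and 3 fell (28.9% and 6.67%), with a median of 0.19, and 8 rose with ERCC totals and 8 with DESeq2. Mki67, the proliferation marker, was at 124 and 116 RPM in WT, 189 and 183 in KO1, 218 and 212 in KO2 (0.69 ± 0.09). The cyclin genes Ccnd1 (0.70 ± 0.12), Ccnd3 (0.43 ± 0.11) and Ccna2 (0.36 ± 0.08) rose. Mki67 was above WT in each knockout library. Top2a (-0.02), Ccnb1 (-0.01), Ccnb2 (0.00), Aurka (0.03) and Cdc20 (0.02) were near 0 and did not pass the test. Cdk6, which pairs with D cyclins, was the strongest faller, at 10.6 and 11.96 RPM in WT, 1.177 and 0.698 in KO1, 1.08 and 0.555 in KO2. Cdk4 (-0.14) did not pass. Of 14 condensin and SMC5/6 genes 4 rose and 1 fell (28.6% and 7.14%). Smc4 (0.55 ± 0.08), Ncapg (0.44 ± 0.09) and Smc2 (0.39 ± 0.10) rose, and Nsmce4a of the SMC5/6 complex fell, at 53.9 and 39.4 RPM in WT, 24.7 and 26.9 in KO1, 25.9 and 29.4 in KO2. In this list 2 fell without WT replicate 2. Of 34 replication licensing genes 8 rose and 1 fell (23.5% and 2.94%). With ERCC totals 0 rose (edgeR, 7 higher at an unadjusted p below 0.05; DESeq2 called 2). Leaving out a library gave other counts, as 4 rose without KO1 replicate 2, 3 without KO2 replicate 1, 3 without KO2 replicate 2 and 3 without WT replicate 1. The number that fell was 0 without WT replicate 1 and 2 without WT replicate 2.

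Metabolic lists leaned downward. Of 30 glycolysis and pentose phosphate genes 1 rose and 10 fell (3.33% and 33.3%), with a median of -0.17. Tktl1 is counted among the fallers through KO2 alone (-6.93), as it did not pass in KO1 (-0.07). The glucose transporter gene Slc2a1 was at 33.2 and 29.7 RPM in WT, 15.6 and 13.96 in KO1, 15.4 and 15.8 in KO2, with no overlap (-1.09 ± 0.19). Tktl2, a transketolase-like gene, fell from 18.5 to 1.82 and 3.13 RPM, with a log2 fold change of -2.95, and -3.65 without KO1 replicate 1. Aldoc (-0.63 ± 0.16), Eno1 (-0.48 ± 0.13) and Taldo1 (-0.45 ± 0.08) fell, Ldha rose (0.50 ± 0.12), with 2 risers without WT replicate 1, and Gapdh (-0.14) and Pkm (0.15) did not pass the test. Of 34 sterol and fatty acid synthesis genes 1 rose and 10 fell (2.94% and 29.4%). Acly, which makes cytosolic acetyl-CoA, was at 392 and 364 RPM in WT, 236 and 253 in KO1, 261 and 251 in KO2 (-0.65 ± 0.07). The fatty acid elongase gene Elovl6 was at 32.9 and 36.6 RPM in WT, 20.01 and 14.7 in KO1, 16.7 and 16.9 in KO2 (-1.07 ± 0.18). Both were lower in each knockout library than in either WT library, and Mvd (-0.85 ± 0.19), Fdps (-0.36 ± 0.08) and Fdft1 (-0.38 ± 0.09) of the mevalonate route fell, while Hmgcs1 (0.14), Sqle (-0.06) and Fasn (-0.03) did not pass. The 1 riser of that list, Cyp51, named after its value was seen, lost its call without KO1 replicate 1, without either KO2 library or without WT replicate 2. Of 26 genes of the amino acid response and serine synthesis 2 rose and 8 fell (7.69% and 30.8%, beside 8.64% and 10.6% of all genes). The number that fell was 2 without WT replicate 1 and 5 without KO1 replicate 1 or either KO2 library. The number that rose was 1 without KO1 replicate 1, and 0 without KO2 replicate 2 or without WT replicate 1. Shmt2 fell under each left-out library (-0.37 ± 0.09).

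Surface and adhesion genes rose more often than they fell, 12 against 5 of 37 tested (32.4% and 13.5%), with a median of 0.24. The members of this list were chosen with earlier results of these data known, and Mpzl2 and Adgrl2 among them belong to the 15 largest rises. Mpzl2, an immunoglobulin-like adhesion gene, was at 14.97 and 23.9 RPM in WT, 80.9 and 86.9 in KO1, 109.6 and 110.1 in KO2. Adgrl2, which encodes the adhesion receptor latrophilin-2, was at 22.6 and 29.7 RPM in WT, 92.1 and 118 in KO1, 127 and 114 in KO2. Both stood several times above WT in all knockout libraries, with log2 fold changes of 2.24 ± 0.15 and 2.05 ± 0.14. N-cadherin (Cdh2) rose from 16.98 to 34.3 and 32.4 RPM (0.92 ± 0.19) and Cdh4 from 10.7 to 19.4 and 23.3 (0.94 ± 0.23), and the tight junction gene Ocln fell from 48.6 to 35.1 and 28.2 (-0.68 ± 0.15). The integrin gene Itga9 fell from 8.35 to 1.61 and 0.814 RPM, with a log2 fold change of -2.87, and -3.61 without KO2 replicate 1. Of these genes 7 rose without WT replicate 1, and 3 fell without KO1 replicate 1 or without either WT library.

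Extracellular matrix genes fell more often than they rose, 10 against 5 of 29 tested (34.5% and 17.2%), with a median of -0.32. The fibrillar collagen gene Col3a1 was at 29.1 and 37.4 RPM in WT, 15.6 and 11.2 in KO1, 10.5 and 6.10 in KO2. Col1a2 fell from 19.96 to 6.31 and 6.30 RPM (-1.71 ± 0.27), and Col4a2 from 8.37 to 3.66 and 1.77 (-1.74 ± 0.42). Lamb1, a laminin subunit gene, was at 212 and 187 RPM in WT, 126 and 118 in KO1, 112 and 129 in KO2 (-0.77 ± 0.09). Col18a1, a collagen gene of basement membranes, was at 103 and 85.2 RPM in WT, 57.7 and 44.3 in KO1, 61.8 and 62.7 in KO2 (-0.78 ± 0.12). All knockout libraries lay below both WT libraries for Lamb1 and Col18a1. The markers of fibroblasts and feeder cells share Col1a1, Col1a2, Col3a1, Col5a2, Col6a3 and Fn1 with this list, so the 2 sets are not independent. Of these markers 0 rose and 7 fell of the 10 tested of 12, where 8.64% of all genes rose and 10.6% fell. Their summed level was 267 to 270.4 RPM in WT and 222 to 244 in the knockouts, none of the 12 was at 0 in all libraries, and their part in the result was not tested. The number of matrix genes that fell was 6 without either WT library. The number that rose was 2 without KO1 replicate 1, 3 without KO2 replicate 1, 2 without KO2 replicate 2, 3 without WT replicate 1 and 2 without WT replicate 2. The summed level of Sertoli cell markers went the other way, at 32.9 to 36.6 RPM in WT and 43.2 to 63.9 in the knockouts. Among their 5 tested members 2 rose and 1 fell, too few to set beside the shares of all genes, and 5 of 13 were at 0.

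A list of genes better known from neurons was tested for 19 members, of which 6 rose and 2 fell (31.6% and 10.5%), with a median of 0.55. Its members were chosen with earlier results of these data known, and Nefm, Gpr83 and Tmem132e are among the 15 largest rises. The share and the median therefore give no support of their own to a rise of such genes. The neurofilament gene Nefm (overlapped by A230070E04Rik) was at 60.4 and 57.6 RPM in WT, 259 and 223 in KO1, 272 and 253 in KO2, and the intermediate filament gene Nes rose from 25.4 to 36.0 and 45.7 RPM (0.63 ± 0.16), while Nefl (0.72) did not pass the test. Gpr83, a G protein-coupled receptor gene, was at 4.36 and 4.98 RPM in WT, 16.8 and 18.9 in KO1, 32.7 and 31.6 in KO2. Tmem132e, a membrane protein gene, was at 7.90 and 5.98 RPM in WT, 35.6 and 30.4 in KO1, 32.9 and 29.4 in KO2. For Nefm, Gpr83 and Tmem132e no knockout library overlapped WT, and KO2 stood above KO1 for Gpr83 without passing the test between the lines (adjusted p = 0.0584). Elavl2, an RNA-binding protein gene also active in germ cells, rose from 40.6 to 65.6 and 68.8 RPM (0.68 ± 0.14), and Stmn1 fell from 922 to 707 and 677 (-0.46 ± 0.06). Of 26 SOX and forkhead factor genes 5 rose and 5 fell (19.2% and 19.2%), and 3 rose without WT replicate 2. Foxa2, a pioneer factor of endoderm, was at 4.63 and 6.23 RPM in WT, 22.7 and 25.8 in KO1, 21.9 and 19.4 in KO2. Foxf1, a factor of mesoderm, was at 34.0 and 48.1 RPM in WT, 8.24 and 9.08 in KO1, 14.8 and 11.4 in KO2. Foxa2 rose and Foxf1 fell in all knockout libraries, with log2 fold changes of 1.98 ± 0.27 and -1.995 ± 0.20, and Foxc2 (0.83 ± 0.14) and Sox15 (1.58 ± 0.39) rose while Foxr1 fell (-1.22 ± 0.18).

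Interferon-inducible genes had the lowest median of the 32 lists, -0.68, and of 28 tested 1 rose and 9 fell (3.57% and 32.1%, beside 8.64% and 10.6% of all genes). Ifitm1 was at 40.6 and 30.4 RPM in WT, 15.3 and 14.7 in KO1, 11.1 and 10.8 in KO2 (-1.51 ± 0.20), Ifi35 fell from 20.5 to 10.01 and 10.95 RPM (-1.01 ± 0.23). The more abundant Oasl2 and Irf1 fell from 97.1 to 54.1 and 59.2 (-0.83 ± 0.12) and 201 to 124 and 122 (-0.76 ± 0.09). Ifitm1 showed no overlap between WT and knockout, and the class I antigen gene H2-K1 rose, from 69.9 to 125 and 136 RPM (0.85 ± 0.11), while H2-D1 (-0.05) and B2m (0.09) did not pass the test. The number that fell was 5 without KO2 replicate 2 and 5 without WT replicate 2, and 2 rose without WT replicate 2. Of 30 genes of the X-linked MAGE, XLR and RHOX families 2 rose and 6 fell (6.67% and 20%). Magea8 is among the risers, and against WT it passed in KO1 alone. Xlr5c had 94 counts in WT and 0 in the 4 knockout libraries, at least 13.7-fold lower with a floor of 3 counts per library. Its close relatives Xlr5a (0.01) and Xlr5b (-0.51, from 0.63 in KO1 and -1.65 in KO2) did not pass the test in the mean of both lines, and reads shared by such near-identical copies make these values uncertain. Mageb4, abundant in these cells, was at 339 and 405 RPM in WT, 166 and 185 in KO1, 276 and 292 in KO2 (-0.79 ± 0.07). Rhox10, a factor of stem cell establishment, fell from 84.6 to 49.3 and 47.1 (-0.86 ± 0.12), while Maged2 rose (0.69 ± 0.14). Among 26 imprinted genes 2 rose and 5 fell (7.69% and 19.2%). H19 was at 52.0 and 43.4 RPM in WT, 27.7 and 26.9 in KO1, 12.4 and 8.32 in KO2 (overlapped by Mir675), and Slc38a4 rose from 36.2 to 76.7 and 57.8 RPM (0.83 ± 0.14). The number that fell was 3 without KO2 replicate 1 and 3 without WT replicate 2.

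The last 3 lists held counts that moved with single libraries. Of 30 p53 target and apoptosis genes 5 rose and 3 fell (16.7% and 10%, beside 8.64% and 10.6% of all genes), with Pmaip1 (Noxa), at 38.7 and 39.9 RPM in WT, 63.0 and 77.5 in KO1, 66.4 and 63.0 in KO2, higher in each knockout library (0.73 ± 0.14), and the death receptor gene Tnfrsf10b higher too (0.74 ± 0.18). There 3 rose without KO1 replicate 2, 3 without KO2 replicate 1 and 3 without WT replicate 1, and 1 fell without KO1 replicate 2 or either KO2 library. Of 32 heat shock and unfolded protein genes 6 rose and 5 fell (18.75% and 15.6%), with Hspa1a lower (-1.09 ± 0.18) and the chaperone gene Canx higher (0.45 ± 0.10). Left out 1 at a time, the libraries gave 1 to 4 risers and 2 to 5 fallers. There were 3 risers without KO1 replicate 2, 2 without KO2 replicate 1, 3 without KO2 replicate 2, 3 without WT replicate 1 and 1 without WT replicate 2, and 2 fallers without KO1 replicate 1, 3 without KO2 replicate 1 and 2 without KO2 replicate 2. Of 13 ephrins and ephrin receptors 2 rose and 1 fell (15.4% and 7.69%). Beside Epha2, Efnb1 rose (1.70 ± 0.50) and Efnb3 fell (-0.40 ± 0.15). Here 1 rose without KO1 replicate 1, KO2 replicate 2 or WT replicate 1, and 0 fell without either KO1 library, KO2 replicate 2 or WT replicate 2 (edgeR, 2 lower at an unadjusted p below 0.05 among all 13; DESeq2 called 0).

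Among the 15 largest rises and 15 largest falls of well measured genes, 6 belong to none of the lists, and all 6 overlap another annotated gene, whose reads could be counted with theirs. Ppfibp2, which encodes the scaffold protein liprin-beta-2, rose from 5.99 and 6.98 RPM in WT to between 14.1 and 25.8 in the knockout libraries (1.63 ± 0.27). Rin2, an exchange factor gene for the endosomal GTPase RAB5, fell from 43.3 and 43.6 RPM in WT to between 5.24 and 6.77 in the knockout libraries (-2.87 ± 0.21), and Pxt1, a testis gene, from 42.5 and 33.6 RPM in WT to between 5.83 and 16.2 in the knockout libraries (-1.89 ± 0.21). For both genes all 4 knockout libraries lay below both WT libraries. Sfi1, whose protein binds centrin at centrosomes, fell from 40.02 and 38.6 RPM in WT to between 9.71 and 16.8 in the knockout libraries (-1.73 ± 0.19), and Fbxo32, a ubiquitin ligase gene of muscle wasting, from 41.7 and 36.6 RPM in WT to between 10.3 and 14.7 in the knockout libraries (-1.72 ± 0.19). Eef2k, the kinase that slows translation elongation, fell from 73.8 and 63.0 RPM in WT to between 19.4 and 27.7 in the knockout libraries (-1.67 ± 0.15).

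The knockout lines differed from each other in 0.833% of genes, 0.547% higher in KO1 and 0.286% lower in KO1 than in KO2. Of the 2286 genes called in the mean of both lines, 48 also differed between the lines. Tktl1, an X-linked transketolase-like gene (chromosome X, 74177259 to 74208498), was at 92.6 and 77.7 RPM in WT, 83.6 and 83.8 in KO1, 0.540 and 0.832 in KO2, so KO1 was at the level of WT and KO2 was at or under the detection limit. The difference between the lines was 6.86 ± 0.31 on the log2 scale (adjusted p = 7.22e-37), and against WT Tktl1 was at -0.07 in KO1 (adjusted p = 0.792). Magea8, a cancer-testis antigen gene, was at 13.1 and 18.9 RPM in WT, 69.7 and 73.0 in KO1, 17.01 and 21.6 in KO2. Its relative Magea5 was at 18.8 and 21.7 RPM in WT, 40.6 and 45.4 in KO1, 13.5 and 18.0 in KO2. For both, KO1 lay above WT and KO2, KO2 overlapped WT for Magea8 and lay just below it for Magea5, and similar copies of these genes make the counts uncertain, with KO1 above KO2 by 1.88 ± 0.19 and 1.44 ± 0.22. Dmrtc2 (overlapped by Lypd4 and Gm38966) was at 29.7 and 24.9 RPM in WT, 41.5 and 40.5 in KO1, 15.4 and 11.9 in KO2, above WT in KO1 and below it in KO2, with a difference of 1.58 ± 0.22. Nid1, which encodes nidogen of basement membranes, was at 45.7 and 56.3 RPM in WT, 31.2 and 44.7 in KO1, 85.6 and 89.9 in KO2, higher in KO2 than in KO1 or WT, with a log2 fold change of KO1 against KO2 of -1.22 ± 0.16.

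Among the genes that fell in both lines, Sohlh1 was higher in KO1 than in KO2 by 2.34 ± 0.50, and the difference was 4.36 without KO2 replicate 1 and 1.55 without KO2 replicate 2, where it lost its call. Kit was higher in KO1 by 1.25 ± 0.23. Ifi27, which overlaps another annotated gene, at 42.2 and 41.1 RPM in WT, 4.41 and 4.89 in KO1, 12.7 and 11.7 in KO2, was lower in KO1 (-1.39), a call lost without any 1 of the 4 knockout libraries. Tex12 of the synaptonemal complex was at 53.1 and 103 RPM in WT, 49.7 and 60.4 in KO1, 15.9 and 24.7 in KO2, with WT libraries far apart, and its difference between the lines (1.43 ± 0.20) lost its call with DESeq2 and with a robust fit. Its log2 fold change in the mean of both lines was -1.28, and -0.76 without WT replicate 2. The differences of Myof (-1.49), Atp2b4 (-0.97), Ikbkb (-0.95) and Gba2 (-0.89), all lower in KO1, each lost the call without at least 1 library. The count of 99 genes that differed fell to between 41 and 45 without any 1 knockout library (KO1 replicate 1 43, KO1 replicate 2 41, KO2 replicate 1 45, KO2 replicate 2 42) and was 189 without WT replicate 1 and 185 without WT replicate 2.

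**Figure D4:**
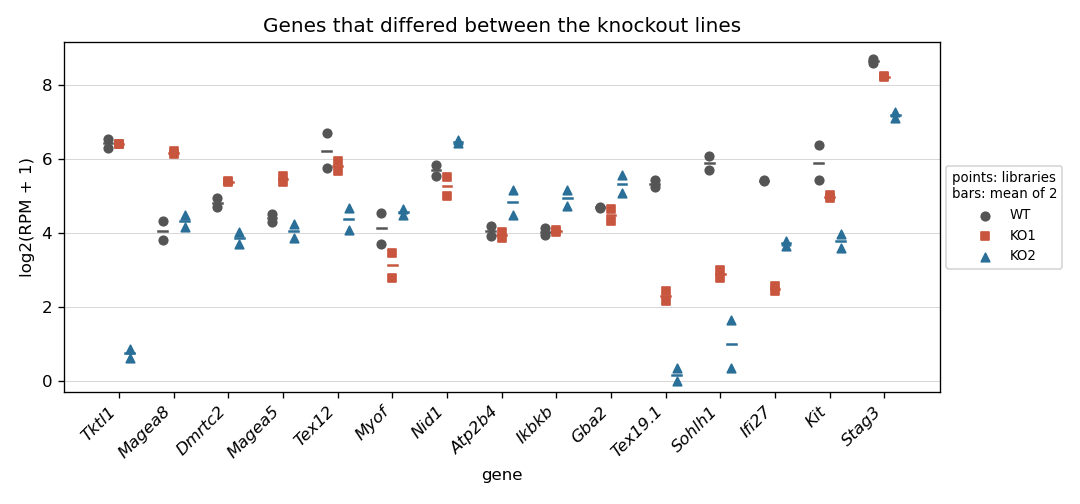
Level of the 15 genes that were named for a difference between the knockout lines (x axis) as log2(RPM + 1) (y axis) in each GSC library, with circles for WT, squares for KO1, triangles for KO2 and bars for the mean of the 2 libraries of a group. Tktl1 is near 0 in KO2 alone, Magea8 and Magea5 are high in KO1 alone, and the WT libraries of Tex12 and Kit lie apart.

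By position in the genome, medians of the log2 fold change ran from -0.04 on chromosome 8 to 0.09 on chromosome X among the nuclear chromosomes. On chromosome X 13.1% of 466 genes rose and 8.80% fell, and on chromosome 8 5.40% of 667 rose and 14.4% fell, beside 8.64% and 10.6% of all genes. A gene that rose was followed by the next tested gene also rising in 14.4% of 1019 cases, against 8.60% of all placed genes, and a gene that fell by another faller in 15.8% of 1257 cases, against 10.6%. Runs of 4 or more neighbouring tested genes called in 1 direction numbered 14, 5 of them of higher and 9 of lower genes. One run of 5 lower genes spans the imprinted H19 and Igf2 region (chr7:142375910-142969264) and holds Ctsd, Mrpl23, H19, Igf2 and Ascl2. Of these, Igf2 lost its call without KO1 replicate 1, KO2 replicate 1 or WT replicate 2 and Ascl2 without WT replicate 2. A run of 5 higher genes holds Atp2b1, Poc1b, Galnt4, Dusp6 and Gm34921 (chr10:98914630-99270899), and another holds Tmc6, Syngr2, Tk1, Afmid and Birc5 (chr11:117765985-117855743). The 4 higher genes around Smc4 are Ift80, Smc4, Trim59 and Kpna4 (chr3:68892499-69127092). Some neighbours overlap in the annotation, as Dusp6 and Gm34921 do, and without a stated strand setting their reads cannot be told apart; no test was made of these shares.

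The germ cells taken from testis give the level of these genes outside culture, with each library scaled to its own total and no test between the sets. Etv5 was 6.57 ± 0.161 RPM (SD, n = 2) at embryonic day 16, 11.4 ± 3.08 at embryonic day 17 and 145 ± 15.1 at postnatal day 7. The 57.2 RPM of WT GSCs lay between the fetal and the postnatal level and the knockout means above all of them. Dusp6 was 4.57 ± 1.98 RPM (SD, n = 2) at embryonic day 16, 1.42 ± 1.26 at embryonic day 17 and 77.4 ± 4.96 at postnatal day 7. The knockout means of 97.9 and 122 were again above the postnatal level. Egr2 was 3.04 ± 1.32 RPM (SD, n = 2) at embryonic day 16, 6.84 ± 0.685 at embryonic day 17 and 103 ± 3.85 at postnatal day 7, above the 41.9 and 43.0 of the knockout lines. Tcl1 was 13.2 ± 7.28 RPM (SD, n = 2) at embryonic day 16, 15.2 ± 1.45 at embryonic day 17 and 111 ± 2.80 at postnatal day 7. Foxa2 was 4.45 ± 0.673 RPM (SD, n = 2) at embryonic day 16, 7.08 ± 1.83 at embryonic day 17 and 0.155 ± 0.219 at postnatal day 7. Tcl1 at postnatal day 7 was thus nearer to the knockout GSCs than to WT GSCs, and Foxa2 nearer to WT at each age. Of the other largest rises, Etv4 (15.99 RPM), Nefm (55.1), Epha2 (10.4) and Mpzl2 (9.64) were nearer to WT at postnatal day 7. So were Id3 (7.34), Junb (2.58) and Gpr83 (1.44). Tmem132e (26.2) was nearer to the knockout means and Ppfibp2 (48.7) above them, while Adgrl2 (54.9) and Rap1gap2 (17.997) lay between WT and knockouts. A high level at postnatal day 7 was not common to the genes that rose. Of the genes that fell, Sohlh1 was 259 ± 2.43 RPM (SD, n = 2) at embryonic day 16, 322 ± 1.61 at embryonic day 17 and 173 ± 21.1 at postnatal day 7. Tex19.1 was 58.8 ± 29.3 RPM (SD, n = 2) at embryonic day 16, 110.2 ± 2.68 at embryonic day 17 and 141 ± 4.86 at postnatal day 7. Tdrd9 was 829 ± 2.86 RPM (SD, n = 2) at embryonic day 16, 763 ± 10.5 at embryonic day 17 and 119.8 ± 29.1 at postnatal day 7, and Sohlh1 and Tdrd9 were above WT GSCs at each age, while 1 of the 2 libraries of Tex19.1 at embryonic day 16 lay within the range of WT GSCs. Sox3 was 8.18 ± 4.60 RPM (SD, n = 2) at embryonic day 16, 16.6 ± 3.88 at embryonic day 17 and 79.6 ± 9.79 at postnatal day 7, at postnatal day 7 close to the 81.6 RPM of WT GSCs. Tktl1, lost in KO2, was 67.0 ± 2.20 RPM (SD, n = 2) at embryonic day 16, 94.96 ± 1.88 at embryonic day 17 and 125 ± 10.4 at postnatal day 7.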

How the data were processed

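Total RNA from cultured germline stem cells and testis germ cells was amplified from 1 ng and read at its 3' ends. The submitters' processing notes name cutadapt 1.18, TopHat2 2.1.1, HTSeq 0.9.1, Salmon 1.4.0 and GRCm38.p6; no source used here gives their roles or the strand setting. Each deposited table holds raw counts per gene, as the authors counted them, and the authors' own scaled values, a score proportional to the counts, which were not used for tests. Replicate numbers of the WT libraries differ between the titles and the names of the deposited tables, and those of the titles were used.

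Of 35652 gene rows, 10 had no value and were treated as missing, which left 35642, of which 35564 matched RefSeq by gene ID. Spike-in and transgene rows were left out of tests. Counts of the 6 GSC libraries were fitted with edgeR 4.0.16 in R 4.3.3 (filterByExpr by group, TMM, quasi-likelihood test, Benjamini-Hochberg adjustment over 11890 genes, threshold 0.05) with 3 groups, and the contrasts were the mean of KO1 and KO2 against WT, each line against WT, and KO1 against KO2. RPM was computed from counts per 1000000 non-mitochondrial gene counts. The procedure was tested on simulated data. The labels do not say whether the 2 libraries of a group come from separate cultures, so the p-values reflect the spread between these libraries alone, which may be technical, and intervals and floors cover counting error only.

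Same-numbered libraries deviated together with correlations of 0.169, 0.0918 and 0.00188, so the numbers were not treated as pairs. Alternatives were DESeq2 1.42.0, other size factors and filters, a fold threshold of 1.5, 2 groups in place of 3, a replicate block and each library left out. Named genes were the 15 largest rises and 15 largest falls among called genes with at least 20 RPM in either genotype and no overlap between genotypes, up to 5 called members in each direction of each of 32 lists, others whose role the text needed, and, of the genes called between the lines with at least 20 RPM in either line, the 5 most different in each direction. The members and lists were chosen with earlier results of these data known, and gene models named Gm, Rik or LOC, mitochondrial and ribosomal protein genes were left out of the ranking.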

Additional observations from a re-analysis of the deposited data

Results flagged for a closer look

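Levels differed between the 2 knockout lines, by the edgeR quasi-likelihood test of KO1 against KO2, in 22 of the named genes. The contrast sets 1 line against the other and does not by itself measure an effect of the knockout, and no cause of these differences was tested. The comparison of the knockouts with WT can also hold differences between lines. The spread between the libraries of a group does not measure those. KO1 was higher than KO2 on the log2 scale by 6.86 for Tktl1, 1.88 for Magea8, 1.58 for Dmrtc2, 1.44 for Magea5 and 1.43 for Tex12. It was lower for Myof (-1.49), Nid1 (-1.22), Atp2b4 (-0.97), Ikbkb (-0.95) and Gba2 (-0.89). Of the genes named for the change in both lines, Tex19.1 (4.54), Sohlh1 (2.34), Kit (1.25) and Stag3 itself (1.05) were higher in KO1, and Ifi27 (-1.39) was lower. The value of Tex19.1 is a fitted one with 1 count in KO2, ranged from 3.72 to 6.79 over the alternatives and lost its call with DESeq2. Of the genes named from the lists, Xlr5b (2.28), H19 (1.39), Stra8 (0.48), Ddx4 (0.38) and Taf7l (0.31) were higher in KO1, and Mageb4 (-0.69) and Gapdh (-0.31) were lower. Stra8, Ddx4, Taf7l and Gapdh lost their calls without KO1 replicate 2 or without either KO2 library, and Taf7l and Gapdh also without KO1 replicate 1.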

How the results depend on the processing

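In place of 2286 genes called for the mean of both lines (1027 higher, 1259 lower), DESeq2 called 1083 (452 higher, 631 lower), ERCC totals as size factors 1447 (569 higher) and a test against a fold of 1.5 306 (111 higher, 195 lower). For KO1 against WT the 1622 calls became 679 with DESeq2 and 202 with the fold threshold. For KO2 the 1860 became 864 with DESeq2, 1191 with ERCC totals and 262 with the fold threshold. Between the lines, whose alternatives were all chosen after seeing the data, 99 became 35 with DESeq2 and 21 with the fold threshold. With each library left out in turn the counts ran from 1705 to 2170 for the mean of both lines (701 to 888 higher, 955 to 1282 lower), 859 to 1779 for KO1, 905 to 1869 for KO2 and 41 to 189 between the lines. A replicate block on the title numbers gave 2531 calls (136 between the lines), and with the numbers of the table names 2124; the numbers are not shown to pair the libraries. Of 312 named or listed genes that were called, none reversed under any alternative, 119 lost the call with DESeq2, 90 with ERCC totals, 224 with the fold threshold, 48 in a fit of 2 groups and 41 to 85 with a library left out, 9 with the block on the numbers of the table names, and 0 with the block on the title numbers, the robust fit or mitochondrial genes removed; between the lines the robust fit ended the call of Tex12. The cause of these changes was not tested. Depth limits the lowest genes: 3 counts are 0.748 to 1.05 RPM.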

Other observations

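The deposited tables also count reads on transgene sequences, which stayed outside all comparisons. The row labelled RBG_pA held 1022 and 1062 counts in the WT libraries (278 and 265 RPM), 340 and 323 in KO1 (100.05 and 113 RPM) and 246 and 179 in KO2 (66.4 and 49.7 RPM). The row labelled EF1a_pA held 125 and 198 counts in WT, 70 and 69 in KO1 and 91 and 90 in KO2. Both rows were thus lower in all knockout libraries than in both WT libraries. The labels do not say which transgene carries which sequence, and no test was made.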
